A study of Mus musculus with 63 samples.

Results

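The mitosis and G2/M genes described here are 45 genes whose products carry a cell from the end of DNA replication through chromosome segregation to its division. The rule was a list of gene names, looked up among the 54752 genes of the count tables. All 45 were found in each of the 4 tables, and all 45 passed the filter on low counts in every comparison. The lowest count of any of them in a library was 34 reads, for Kif18a in IECs, and the highest was 8101 reads, for Mki67 in organoids.

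In a dividing cell these genes are switched off after division and are transcribed again late in the cycle, so their transcripts mark cells in G2 and mitosis. Cdk1 with its cyclins Ccna2, Ccnb1 and Ccnb2 starts mitosis, the phosphatase Cdc25c and the kinase Plk1 help to activate it, and Foxm1 is a transcription factor of the same gene group. Bub1, Bub1b, Ttk and Mad2l1 form the spindle checkpoint, the Aurora kinases and kinesins build and move the spindle, the CENP and NDC80 proteins attach chromosomes to it, and the ubiquitin ligase APC/C with Cdc20 and Ube2c ends mitosis by destroying the cyclins and the securin Pttg1. In the small intestine, division is confined to the crypts, where stem cells and their transit-amplifying daughters cycle while the cells of the villi do not.

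The RNA came from small intestinal organoids and intestinal epithelial cells (IECs) of C57BL/6 strain mice in which the Mediator kinases CDK8 and CDK19 were lost singly or together. VillinCreERT2 is a Cre recombinase that is active in the intestinal epithelium only after tamoxifen or its metabolite 4-OHT, and EtOH is the vehicle. Cdk8 fl/fl is the allele that Cre deletes and Cdk19 ko/ko is a constitutive loss. A time course used organoids that carried VillinCreERT2, Cdk8 fl/fl and Cdk19 ko/ko, given EtOH or 100 nM 4-OHT for 24 h and collected at 3, 5, 7 and 10 days, and the same line was also grown in Wnt3-conditioned medium (Wnt3-CM) and collected at 10 days. The EtOH organoids of both experiments therefore already lacked CDK19, and 4-OHT against EtOH compares them with and without the added loss of CDK8. Effects of 4-OHT itself and of the activated Cre cannot be told apart from that loss in these groups, since EtOH cultures had neither. Another 5 groups of organoids were collected 7 days after 4-OHT, namely VillinCreERT2, VillinCreERT2; Cdk8 fl/fl (CDK8 loss), C57BL/6, Cdk8 fl/fl; Cdk19 ko/ko without Cre (CDK19 loss), and VillinCreERT2; Cdk8 fl/fl; Cdk19 ko/ko (combined loss). Organoids that carried VillinCreERT2, Cdk8 fl/fl and Cdk19 ko/D173A, where D173A is a kinase-dead form of CDK19, were compared 7 days after EtOH or 4-OHT. IECs were taken 14 days after tamoxifen (80 mg/kg) from VillinCreERT2 mice (controls) and from mice that carried VillinCreERT2, Cdk8 fl/fl and Cdk19 ko/ko (combined loss). Each of the 19 groups had 3 libraries, and each organoid group was 1 line, so genotype and line cannot be told apart and the p-values among organoids measure the spread between cultures of a line.

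Depth ranged from 15485959 to 32909565 counts on genes per library (median 19374952). Levels are given as CPM, the counts of a gene relative to all counts on genes with TMM factors. Summed markers of epithelium ranged from 4792 to 9244 CPM in organoids, where the 10 immune markers summed to 1.07 to 15.0 CPM and the 6 mesenchyme markers to 0.105 to 42.7 CPM. Cdk8 was at 42.8 to 47.2 CPM after 4-OHT and at 47.7 to 50.2 CPM after EtOH at day 7 of the time course, but the groups overlapped at day 3 (34.2 to 39.3 against 38.6 to 39.9), at day 5 (44.1 to 46.3 against 38.5 to 46.5), at day 10 (53.3 to 57.5 against 53.9 to 57.0) and in Cdk19 ko/D173A organoids (63.7 to 69.4 against 63.2 to 70.5). It was at 65.0 to 67.1 CPM with combined loss and 71.8 to 80.7 CPM in VillinCreERT2 organoids. It was not below all controls with CDK8 loss (77.9 to 83.1 CPM), in Wnt3-CM (46.6 to 56.1 against 45.9 to 49.8) or in IECs (49.0 to 52.4 against 45.6 to 52.7). Cdk19 was at 27.6 to 27.8 CPM with combined loss and 27.2 to 29.1 in VillinCreERT2 organoids, and at 24.7 to 26.0 with CDK19 loss and 28.7 to 34.5 in C57BL/6 organoids. Reads were summed over the whole gene, so these levels do not test the deletions, which are taken here from the labels. The paper on these data reports loss of CDK8 in organoids and IECs by its own RNA and protein assays. Among the day 7 lines, Xist was high only in VillinCreERT2 organoids (342 to 432 CPM) and C57BL/6 organoids (587 to 804 CPM), and the Y-linked Ddx3y was at 55.8 to 71.0 CPM in the other three groups and at 0 in these, so sex and genotype cannot be told apart in the comparisons of loss with control lines.

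The promoters of these genes are shown first because most of the genes move together in the comparisons below. Genes of late G2 and mitosis often carry the cell cycle genes homology region (CHR), which is bound by complexes of MuvB with B-MYB or with repressive pocket proteins, and CCAAT boxes, which are bound by NF-Y. Windows of 250 bases before to 50 bases after the transcription start were taken from RefSeq on GRCm38.p6, where 37 of the 45 genes had a window. CHR was searched as TTTGAA or TTCGAA and CCAAT as CCAAT, on both strands. CHR was in a window of 29 of the 37 genes (78.4%), against 21.7% of the 27025 genes with a window, and CCAAT was in a window of 26 (70.3%), against 41.1%. Both elements were in the same window for 24 genes (64.9%), against 8.61% of all genes, and the motifs overlapped in 1 member window. In 16 genes the CHR lay only at or after the annotated start, and before the start it was found in 13 genes (35.1%, against 19.6% of all). Birc5, Kif18a, Mad2l1, Nuf2, Nusap1 and Pttg1 had neither motif, which says only that these letters are not in the window. Ccna2, Aurkb, Incenp, Kif20a, Spc24, Tpx2, Cdc25c and Foxm1 had no window in the table.

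The windows of the genes whose library values are given below, other than Foxm1, are shown 5′ to 3′ on the strand of the gene, with CHR and CCAAT letters in capitals on either strand. They lie at chr10:69352863-69353162 on the minus strand for Cdk1, chr13:100786437-100786736 on the minus strand for Ccnb1, chr7:135716330-135716629 on the minus strand for Mki67, chr7:127042371-127042670 on the minus strand for Kif22, chr19:37376132-37376431 on the plus strand for Kif11, chr11:117848987-117849286 on the plus strand for Birc5 and chr11:43425932-43426231 on the minus strand for Pttg1. Pttg1 is shown because its values ran against those of the others in some comparisons. The Cdk1 window held 2 CHR and 3 CCAAT matches, that of Mki67 the same numbers, and that of Kif22 2 of each. Ccnb1 had 2 CCAAT matches and none to the CHR letters searched, Kif11 had 1 of each, and Birc5 and Pttg1 had none. Other forms of the CHR were not searched. The Pttg1 window, like those of Cdca8, Kif2c and Kif4, lies wholly inside the gene as GENCODE draws it, downstream of that start, so for these 4 genes the letters do not cover the bases before the GENCODE start.
Cdk1: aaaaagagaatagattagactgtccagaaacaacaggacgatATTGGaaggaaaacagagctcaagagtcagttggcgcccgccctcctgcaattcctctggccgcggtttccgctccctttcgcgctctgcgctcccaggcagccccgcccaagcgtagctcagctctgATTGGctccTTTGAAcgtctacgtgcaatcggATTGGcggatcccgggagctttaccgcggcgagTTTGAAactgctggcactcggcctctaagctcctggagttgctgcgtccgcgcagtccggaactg
Ccnb1: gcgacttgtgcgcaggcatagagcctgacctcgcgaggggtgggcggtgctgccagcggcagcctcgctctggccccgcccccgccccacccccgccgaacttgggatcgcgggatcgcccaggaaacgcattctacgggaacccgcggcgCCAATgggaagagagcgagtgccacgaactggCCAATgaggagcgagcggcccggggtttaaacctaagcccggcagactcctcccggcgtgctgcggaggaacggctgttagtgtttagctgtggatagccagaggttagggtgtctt
Mki67: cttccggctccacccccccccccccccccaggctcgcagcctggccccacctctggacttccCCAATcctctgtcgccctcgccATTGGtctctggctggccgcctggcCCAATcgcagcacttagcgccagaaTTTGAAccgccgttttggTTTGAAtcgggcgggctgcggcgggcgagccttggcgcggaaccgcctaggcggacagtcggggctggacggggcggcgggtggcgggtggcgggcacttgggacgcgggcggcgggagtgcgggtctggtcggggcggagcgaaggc
Kif22: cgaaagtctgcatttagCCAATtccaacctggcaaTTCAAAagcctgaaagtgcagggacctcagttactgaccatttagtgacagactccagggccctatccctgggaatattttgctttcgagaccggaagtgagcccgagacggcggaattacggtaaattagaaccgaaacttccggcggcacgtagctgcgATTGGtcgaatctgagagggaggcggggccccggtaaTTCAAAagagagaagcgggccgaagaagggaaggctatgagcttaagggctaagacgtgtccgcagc
Kif11: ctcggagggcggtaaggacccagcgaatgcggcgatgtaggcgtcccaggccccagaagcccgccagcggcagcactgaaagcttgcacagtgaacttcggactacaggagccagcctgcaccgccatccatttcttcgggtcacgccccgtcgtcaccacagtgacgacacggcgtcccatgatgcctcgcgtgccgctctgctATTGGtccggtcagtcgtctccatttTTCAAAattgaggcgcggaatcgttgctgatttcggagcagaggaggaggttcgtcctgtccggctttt
Birc5: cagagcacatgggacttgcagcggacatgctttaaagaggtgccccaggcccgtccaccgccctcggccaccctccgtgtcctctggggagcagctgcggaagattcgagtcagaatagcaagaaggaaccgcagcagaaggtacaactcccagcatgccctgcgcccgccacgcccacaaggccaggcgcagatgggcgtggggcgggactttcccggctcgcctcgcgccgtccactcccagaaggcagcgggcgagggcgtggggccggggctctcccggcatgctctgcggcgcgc
Pttg1: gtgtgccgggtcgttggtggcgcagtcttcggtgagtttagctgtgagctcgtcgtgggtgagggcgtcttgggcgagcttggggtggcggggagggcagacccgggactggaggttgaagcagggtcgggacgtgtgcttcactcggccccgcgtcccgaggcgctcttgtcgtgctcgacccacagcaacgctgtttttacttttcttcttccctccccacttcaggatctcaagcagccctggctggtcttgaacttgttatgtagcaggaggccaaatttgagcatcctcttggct

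Cdk1, the kinase that drives entry into mitosis, has its gene on chromosome 10 from 69335146 to 69352938 of GRCm38, and its cyclin partner Ccnb1 lies on chromosome 13 from 100778650 to 100786570. Mki67, which coats mitotic chromosomes and is the standard marker of cycling cells, lies on chromosome 7 from 135689784 to 135716361. Kif22, a kinesin that pushes chromosomes toward the spindle equator, lies on the same chromosome from 127027729 to 127042471. Kif11, the kinesin that separates the spindle poles, lies on chromosome 19 from 37376403 to 37421859, Foxm1 on chromosome 6 from 128362967 to 128376146, and Pttg1 on chromosome 11 from 43420250 to 43426251.

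Per kilobase of exon, the level of the 45 genes in EtOH organoids at day 7 ran from 83.0 ± 4.91 CPM per kb for Plk1 (SD, n = 3), through 74.9 ± 9.08 for the APC/C enzyme Ube2c, 49.8 ± 4.53 for Ccna2 and 47.5 ± 1.30 for Cdc20, down to 0.900 ± 0.188 for the kinesin Kif18a. Plk1 and Ube2c did not differ beyond their spread, nor did Ccna2 and Cdc20. In control IECs Plk1 (21.7 ± 1.75 CPM per kb) and Ube2c (19.7 ± 1.6) were again the highest, followed by Ccnb2 (19.2 ± 0.225) and Cdc20 (19.2 ± 0.744), which were level with Ube2c within their spread. In 14 of the 45 genes an exon overlaps that of another gene, mostly on the opposite strand, as Ccna2 does with Exosc9, and the strand setting of the counting is not given in the sources used here.

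The time course asked how the transcriptome changed with the days after CDK8 was deleted in organoids without CDK19. Some of the mitosis and G2/M genes rose at day 3 by less than the fold set for a call, and most fell later. At day 3 none of the 45 was called in either direction, and 24 were higher at an adjusted p under 0.05 alone, where 15.5% of all genes were. At days 5, 7 and 10, 9, 42 and 18 were called lower, where 4.62%, 9.25% and 6.92% of all genes were. Called here means an adjusted p under 0.05 over all genes tested with edgeR's quasi-likelihood test and a fold change over 1.5. In such bulk RNA, fewer dividing cells and less of these transcripts per cell cannot be told apart.

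**Figure D1:**
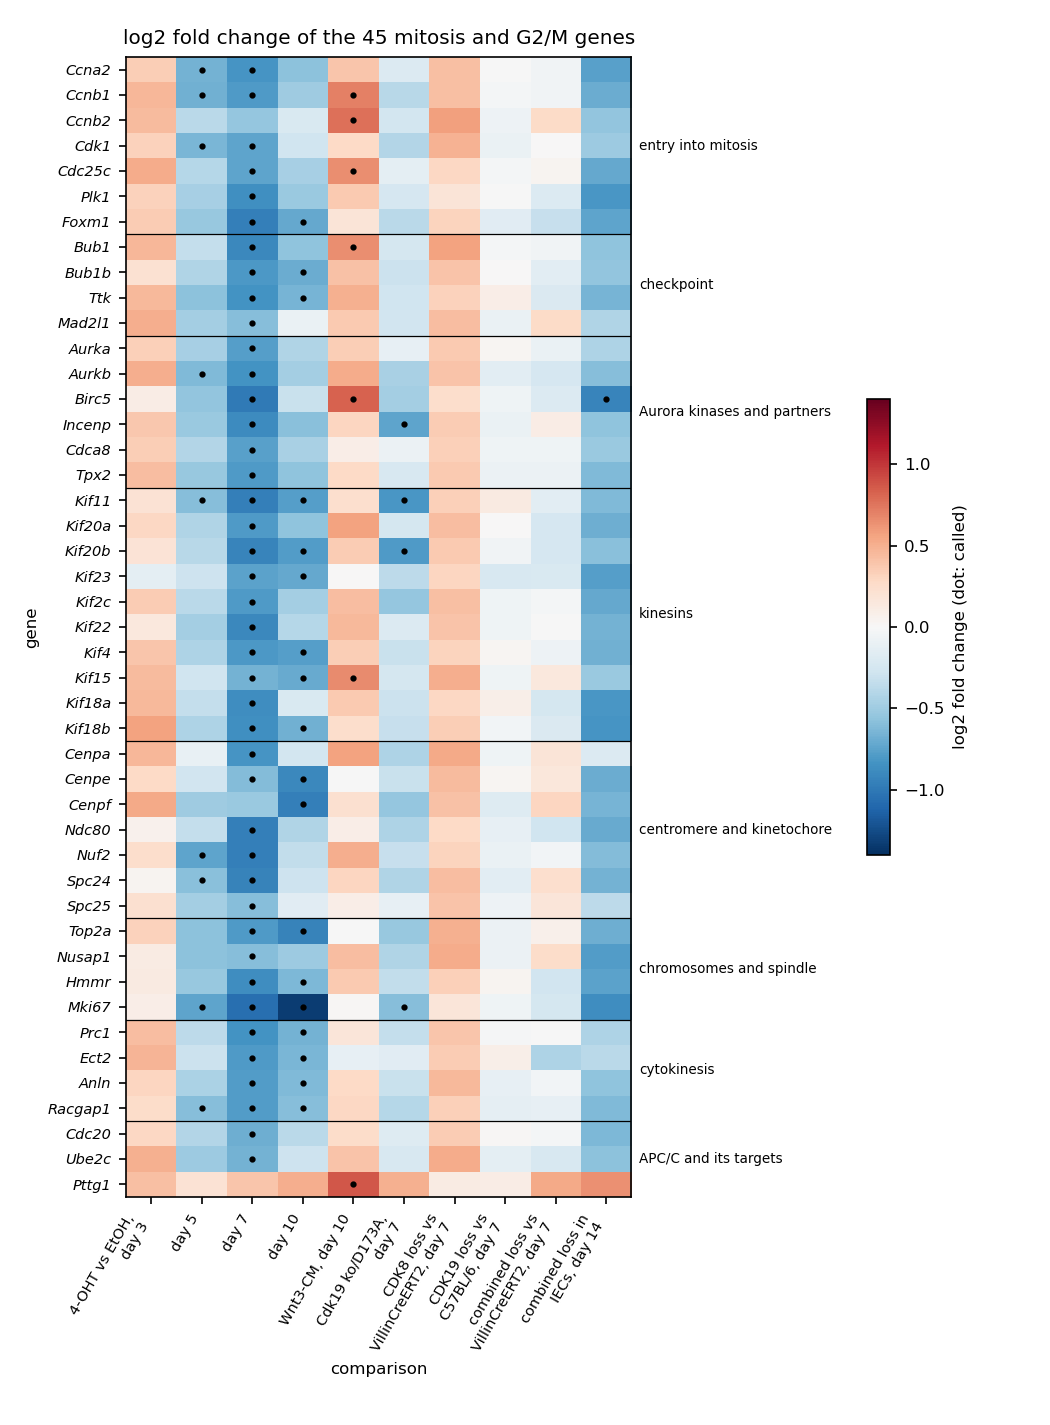
Log2 fold change of each of the 45 genes (rows, grouped by role) in 10 comparisons (columns), with red for higher and blue for lower in the first-named group and a dot for a called gene. The columns for days 5, 7 and 10 are blue down to the last row, Pttg1, which is red, and at day 7 the dots are missing from Ccnb2, Cenpf and Pttg1.

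Summed over the 45 genes, EtOH organoids held 2661, 2745 and 2677 CPM at day 3 and 4-OHT organoids held 3434, 3205 and 3416 CPM. Every 4-OHT library was thus above every EtOH library at day 3. At day 5 the sums were 2779, 2703 and 3357 CPM after EtOH and 1820, 2048 and 2330 CPM after 4-OHT, and at day 7 they were 3060, 3127 and 3431 CPM after EtOH and 1479, 1679 and 2337 CPM after 4-OHT. At day 10 they were 3330, 3463 and 3351 CPM after EtOH and 2119, 2266 and 2315 CPM after 4-OHT. The groups did not overlap at any of the 4 days, the fall was deepest at day 7, and the third 4-OHT library of day 7 stood above the other two of its group.

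**Figure D2:**
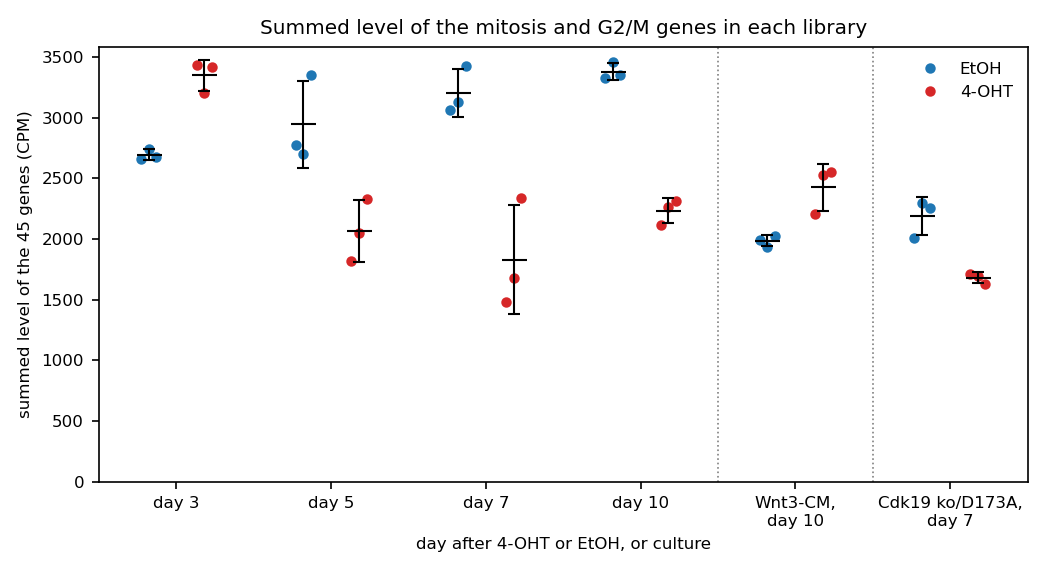
Summed level of the 45 genes in CPM (vertical axis) in each library, for EtOH (blue) and 4-OHT (red) organoids by day of the time course, in Wnt3-CM at day 10 and in Cdk19 ko/D173A organoids at day 7; horizontal bars are means and error bars SD of 3 libraries. The 4-OHT libraries lie above EtOH at day 3 and in Wnt3-CM and below EtOH at days 5, 7 and 10 and in Cdk19 ko/D173A organoids, with no overlap in any pair of groups.

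At day 3, 0 of the 45 genes were called by edgeR in either direction, while 30 were higher and 0 lower at an unadjusted p under 0.05 (19.5% and 23.4% of all genes), and 0 were called by limma-voom and 0 by DESeq2. Of all genes tested, 6.42% were called higher and 5.95% lower. At an adjusted p under 0.05 alone, 24 of 45 were higher and none lower, where 15.5% of all genes were higher. The median log2 fold change was 0.34, and 39 of the 45 genes had all 4-OHT libraries above all EtOH libraries. The share of all genes with such a separation was not counted. A gene was called when the second or the third EtOH library or the third 4-OHT library was left out (1 of 45 in each case). The largest changes were of the kinesin Kif18b, which shortens spindle microtubules (0.56 ± 0.12, SE, adjusted p = 0.000596), the kinetochore protein Cenpf (0.54 ± 0.14, adjusted p = 0.00518) and Cdc25c (0.52 ± 0.14, adjusted p = 0.00524). Kif23 (-0.14 ± 0.08), Spc24 (0.04 ± 0.13) and Ndc80 (0.06 ± 0.12) were the lowest and did not pass the test. Ccnb1 rose by 0.47 ± 0.17 (adjusted p = 0.0331). Plk1 rose by 0.32 ± 0.11 and Foxm1 by 0.35 ± 0.12 (adjusted p = 0.0243 and 0.0219), whereas Top2a (0.33 ± 0.13, adjusted p = 0.0558), which untangles DNA before segregation, Cdk1 (0.32 ± 0.15, adjusted p = 0.0978) and Mki67 (0.10 ± 0.13, adjusted p = 0.626) did not pass.

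At day 5, 9 of the 45 genes were called lower and none higher, where 4.62% of all genes were called lower and 8.58% higher. The 9 were Mki67 (-0.74 ± 0.13, adjusted p = 0.000240), the NDC80 complex members Nuf2 (-0.74 ± 0.14) and Spc24 (-0.59 ± 0.14), Ccnb1 (-0.68 ± 0.17), Ccna2 (-0.66 ± 0.16), Cdk1 (-0.64 ± 0.15), Aurkb (-0.62 ± 0.12), which corrects faulty spindle attachments, Racgap1 (-0.59 ± 0.14), which prepares the cleavage furrow, and Kif11 (-0.59 ± 0.14). At the adjusted p alone 39 were lower, where 19.9% of all genes were, with a median log2 fold change of -0.46. Plk1 fell by 0.46 ± 0.11, Foxm1 by 0.53 ± 0.12 and Top2a by 0.57 ± 0.13 without reaching a fold of 1.5. The highest values were those of Cenpe (-0.27 ± 0.11, adjusted p = 0.0429), Cenpa (-0.10 ± 0.15) and Pttg1 (0.21 ± 0.12), and the last 2 did not pass. The count of 9 rested on a few libraries, being 1 without the third EtOH library, 4 without the first 4-OHT library, 21 without the third 4-OHT library, and 15 and 18 without the first and second EtOH library.

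The change from day 3 to day 5 was tested as the difference of the 4-OHT effects. It was called negative for 39 of the 45 genes and positive for none, where 9.01% of all genes were called negative, with a median of -0.79 on the log2 scale. Ccnb1 showed the largest difference (-1.14 ± 0.24, adjusted p = 0.000772), followed by Aurkb (-1.12 ± 0.16) and Cenpf (-1.04 ± 0.20). Kif20b, Cenpa, Cenpe, Ndc80, Pttg1 and Kif23 were not called, with Kif23 at -0.15 ± 0.12 and Pttg1 at -0.22 ± 0.16.

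At day 7, 42 of the 45 genes were called lower and none higher, where 9.25% of all genes were called lower and 9% higher. The median log2 fold change was -0.80, and 43 of the genes went from a positive value at day 3 to a negative value at day 7. The same count of 42 was made by limma-voom and by DESeq2, and it stayed between 35 and 44 when each library was left out in turn.

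Mki67 had 247, 305 and 329 CPM in the EtOH libraries of day 7 and 120, 142 and 163 CPM in the 4-OHT libraries. It was 2.07-fold lower (-1.05 ± 0.13, adjusted p = 2.69e-06), the largest fall of the 45 genes. Kif11 had 116, 125 and 134 CPM after EtOH and 51.5, 57.7 and 83.7 CPM after 4-OHT (-0.96 ± 0.14, adjusted p = 1.81e-05). Foxm1 had 118, 111 and 123 CPM after EtOH and 51.7, 53.6 and 76.8 CPM after 4-OHT (-0.95 ± 0.12, adjusted p = 8.48e-07). In each of these genes the groups were apart, and the third 4-OHT library was the highest of its group. Kif22 had 49.4, 48.5 and 56.2 CPM after EtOH and 21.2, 27.4 and 33.9 CPM after 4-OHT (-0.90 ± 0.11, adjusted p = 1.36e-07). Ccnb1 had 29.9, 30.1 and 32.8 CPM after EtOH and 13.8, 14.2 and 25.4 CPM after 4-OHT (-0.80 ± 0.17, adjusted p = 0.000650). Cdk1 had 50.2, 49.1 and 61.1 CPM after EtOH and 28.3, 26.6 and 41.5 CPM after 4-OHT (-0.73 ± 0.15, adjusted p = 0.000494). These 3 genes were also apart between the groups. Plk1 fell by 0.85 ± 0.11 (adjusted p = 1.01e-06) and Top2a by 0.80 ± 0.13 (adjusted p = 4.69e-05).

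**Figure D3:**
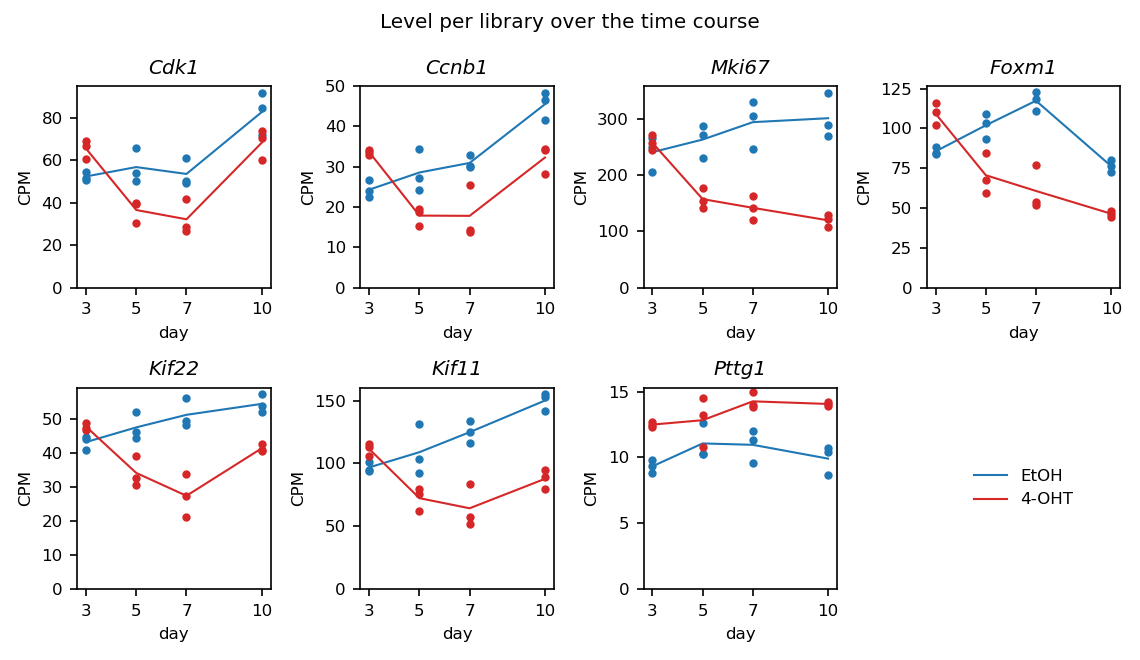
Level in CPM (vertical axes, each from 0) of 7 genes in every library of the time course by day (horizontal axes), for EtOH (blue) and 4-OHT (red); lines join the means of 3 libraries. Mki67 and Foxm1 are still lower after 4-OHT at day 10, and Cdk1 and Ccnb1 rise from day 7 to day 10 after both EtOH and 4-OHT. Pttg1 is higher after 4-OHT.

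By role, the day 7 fall reached all 10 kinesins, from Kif15 (-0.67) to Kif11, all 6 of the Aurora kinases and partners, from the passenger protein Cdca8 (-0.76) to the survivin gene Birc5 (-0.99 ± 0.12, adjusted p = 3.02e-07), and all 4 checkpoint genes, from Mad2l1 (-0.60) to Bub1 (-0.90). It also reached the 4 genes of chromosomes and spindle, from Nusap1 (-0.59) to Mki67, and the 4 of cytokinesis, which lay close together between Anln (-0.78), a scaffold of the contractile ring, and Prc1 (-0.84), which bundles the midzone microtubules. Of the 7 genes of entry into mitosis 6 were called, with Ccnb2 at -0.54 ± 0.12 (adjusted p = 0.000665) short of the fold. Of the 7 centromere and kinetochore genes 6 were called, from Ndc80 (-0.96 ± 0.13, adjusted p = 5.46e-07) down, with Cenpf at -0.52 ± 0.15 (adjusted p = 0.00594) short of the fold. Cdc20 (-0.69) and Ube2c fell, and Pttg1 was higher.

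Genes with and without these motifs were called at day 7. Of the 29 genes with a CHR in the window 27 were called lower (median -0.80). Of the 8 genes with a window but no match to the CHR letters searched, 7 were called lower (median -0.70). Of all genes tested with a window, 13.7% of the 1763 with a CHR and 8.69% of the 8587 without were called lower. Of the 6 genes with neither motif 5 were called, all but Pttg1.

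At day 10, 18 genes were called lower and none higher, where 6.92% of all genes were called lower and 8.86% higher. At the adjusted p alone 36 were lower and 1 higher, where 21.2% and 23.1% of all genes were, and the median was -0.56. Of the 18, 17 had been called at day 7 and the other was Cenpf, while 3 were called at days 5, 7 and 10 alike. Mki67 had 346, 288 and 268 CPM after EtOH and 121, 108 and 129 CPM after 4-OHT, a 2.52-fold difference (-1.33 ± 0.14, adjusted p = 1.39e-07) that was larger than at day 7, though the change between the days did not pass the test (-0.28 ± 0.19, adjusted p = 0.339). Foxm1 had 79.9, 72.6 and 76.2 CPM after EtOH and 48.4, 44.2 and 46.5 CPM after 4-OHT (-0.72 ± 0.12, adjusted p = 4.07e-05), and Kif11 had 142, 155 and 153 CPM after EtOH and 79.5, 88.9 and 94.7 CPM after 4-OHT (-0.77 ± 0.14, adjusted p = 0.000154). These genes remained well apart between the groups.

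Cdk1 was at 60.1, 73.9 and 70.5 CPM after 4-OHT against 71.6, 84.6 and 91.6 CPM after EtOH, so that the groups overlapped (-0.28 ± 0.14, adjusted p = 0.128). Its levels were above those of day 7 in both groups, and the change of its 4-OHT effect between these days was not called. Ccnb1 had 28.3, 34.2 and 34.3 CPM after 4-OHT against 41.6, 46.6 and 48.3 CPM after EtOH (-0.49 ± 0.16, adjusted p = 0.0159). Kif22 had 42.7, 41.0 and 40.8 CPM after 4-OHT against 57.6, 54.0 and 52.2 CPM after EtOH (-0.40 ± 0.10, adjusted p = 0.00279). Both were still lower, under a fold of 1.5, as was Plk1 (-0.52 ± 0.11, adjusted p = 0.000424). Cenpf (-0.95 ± 0.14), Top2a (-0.93 ± 0.13) and Cenpe (-0.91 ± 0.11), a kinesin of the kinetochore, stood next to Mki67, and Mad2l1 (-0.09 ± 0.17), Spc25 (-0.16 ± 0.15) and Kif18a (-0.21 ± 0.13) did not pass the test. By role, 4 of 4 cytokinesis genes, 6 of 10 kinesins, 3 of 4 of chromosomes and spindle, 2 of 4 checkpoint, 2 of 7 centromere and kinetochore and 1 of 7 entry genes were called, and 0 of the 6 Aurora kinases and partners, all 6 of which were lower at the adjusted p alone.

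Differences between the later days were smaller. From day 5 to day 7, 2 genes were called further down, Cenpa (-0.72 ± 0.22, adjusted p = 0.0258), the histone that marks centromeres, and Ndc80 (-0.62 ± 0.18, adjusted p = 0.0164), where 5.01% of all genes were called negative and 3.8% positive, and from day 7 to day 10, 4 were called upward, Birc5 (0.67 ± 0.16, adjusted p = 0.00584), Kif18a (0.66 ± 0.19), Spc24 (0.64 ± 0.19) and Nuf2 (0.60 ± 0.19), where 2.98% were called positive. In 44 of the 45 genes the log2 fold change was lower at day 7 than at day 5, and in 40 it was lower at day 7 than at day 10. Without the third 4-OHT library of day 7, 18 and 16 genes were called in place of 2 and 4, and without the second, 0 and 1 were called. The count between days 5 and 7 was also 0 without the first EtOH library of day 5, 5 without the third, and 1 without any of the second or the third 4-OHT library of day 5, the second or the third EtOH library of day 7 and the first 4-OHT library of day 7. The count between days 7 and 10 was 2 without the third EtOH library of day 7 or the first or the third EtOH library of day 10. The EtOH organoids themselves moved over these days, with 12 genes called higher at day 10 than at day 3, where 16% of all genes were, and a median of 0.45. Ccnb1 was 0.90 ± 0.16 higher, Cdk1 0.66 ± 0.15 and Kif11 0.63 ± 0.14, while Foxm1 (-0.17 ± 0.12) and Plk1 (-0.12 ± 0.11) did not pass.

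Markers of other cell types moved over the same libraries. The 5 stem cell markers summed to 687 to 1059 CPM after 4-OHT and 1944 to 2334 CPM after EtOH at day 7, and at day 3 to 2262 to 2337 CPM and 1864 to 1881 CPM, so the sums were higher at day 3, where Smoc2 alone was lower, and lower at day 7, where all 5 were. The 5 Paneth cell markers summed at day 7 to 1547 to 1741 CPM after 4-OHT and 4093 to 5020 CPM after EtOH, and the 8 markers of villus enterocytes to 4569 to 5159 CPM and 3755 to 4834 CPM, with 4 of the 8 higher and 4 lower in their mean. Their part in the fall of the mitosis genes was not tested.

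Growth in Wnt3-CM addressed whether added Wnt3 alters the response to the loss of CDK8. In this medium the genes were not lower after 4-OHT. Of the 45, 7 were called higher and none lower, where 9.45% of all genes were called higher and 7.42% lower, and at the adjusted p alone 35 were higher, where 24.3% of all genes were, with a median of 0.35. The 7 were Pttg1 (0.87 ± 0.12, adjusted p = 2.22e-06), Birc5 (0.82 ± 0.08, adjusted p = 2.71e-08), Ccnb2 (0.77 ± 0.07, adjusted p = 2.45e-08), Ccnb1 (0.71 ± 0.08), Bub1 (0.65 ± 0.11), the kinesin Kif15 and Cdc25c. Ect2 (-0.12 ± 0.08), which activates RhoA for the cleavage furrow, Top2a (-0.01 ± 0.07) and Cenpe (-0.01 ± 0.10) were the lowest and did not pass. In 41 genes the value was positive in Wnt3-CM and negative in standard medium at the same day.

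Birc5 had 46.6, 52.7 and 54.1 CPM after 4-OHT and 30.7, 27.4 and 28.8 CPM after EtOH in Wnt3-CM. Ccnb1 had 32.6, 38.1 and 37.5 CPM after 4-OHT and 22.3, 22.1 and 21.8 CPM after EtOH. Kif22 had 37.9, 37.2 and 38.6 CPM after 4-OHT and 28.0, 27.5 and 27.5 CPM after EtOH (0.46 ± 0.07, adjusted p = 3.09e-05). These genes were apart between the groups, with the 4-OHT libraries above. Cdk1 had 61.2, 63.6 and 67.5 CPM after 4-OHT and 52.6, 51.4 and 54.4 CPM after EtOH (0.28 ± 0.07, adjusted p = 0.00221). Foxm1 had 48.2, 53.1 and 52.1 CPM after 4-OHT and 45, 44 and 45.8 CPM after EtOH (0.19 ± 0.07, adjusted p = 0.0370). Kif11 had 87.4, 102.9 and 102.2 CPM after 4-OHT and 83.0, 80.9 and 83.9 CPM after EtOH (0.24 ± 0.07, adjusted p = 0.00842). These differences were small but also without overlap, and Plk1 rose by 0.36 ± 0.07 (adjusted p = 0.000110). Mki67 overlapped, with 129, 175 and 177 CPM after 4-OHT and 172, 149 and 153 CPM after EtOH (0.02 ± 0.11, adjusted p = 0.905).

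Fitted together with the day 10 libraries in standard medium, the 4-OHT effect was called more positive in Wnt3-CM for 37 of the 45 genes and more negative for none, where 7.11% of all genes were called more positive, with a median difference of 0.90 on the log2 scale. The largest were Kif15 (1.37 ± 0.15), Mki67 (1.35 ± 0.18, adjusted p = 0.000117), Bub1 (1.21 ± 0.16) and Ccnb1 (1.2 ± 0.12, adjusted p = 5.70e-07). Spc25 (0.25 ± 0.16), Pttg1 (0.37 ± 0.15), Mad2l1 (0.46 ± 0.14), Ect2 (0.52 ± 0.10) and Cdk1 (0.56 ± 0.12, adjusted p = 0.00160) were among the 8 not called.

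The difference between the media lay mostly in the EtOH organoids. There, 37 of the 45 genes were called lower in Wnt3-CM than in standard medium and none higher, where 11.5% of all genes were called lower, with a median of -0.77 and Birc5 at the end (-1.36 ± 0.08, adjusted p = 6.26e-11). On the scale of the joint fit, Mki67 was at 175, 151 and 155 CPM in Wnt3-CM with EtOH against 347, 289 and 268 CPM in standard medium with EtOH. After 4-OHT, 0 of 45 were called by edgeR, limma-voom or DESeq2 in either direction, where 5.47% of all genes were called higher and 4.68% lower. At an unadjusted p under 0.05, 17 were higher and 2 lower, where 19.3% and 20.3% of all genes were, and the median was 0.15. Mki67 was then at 129, 176 and 179 CPM in Wnt3-CM against 121, 107 and 129 CPM in standard medium (0.44 ± 0.13, adjusted p = 0.0216). The 4-OHT organoids of the media thus lay closer together than their EtOH controls. The media were deposited in separate tables, so medium and table cannot be told apart in these contrasts.

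In the same fit the stem cell markers summed to 1076 to 1217 CPM after EtOH and 1096 to 1346 CPM after 4-OHT in Wnt3-CM, against 3089 to 3351 CPM and 1592 to 1789 CPM in standard medium. In Wnt3-CM the sum hid a split, with Lgr5 at 88.5 ± 11.8 CPM (SD, n = 3) after EtOH and 61.8 ± 9.88 CPM after 4-OHT and Ascl2 and Axin2 also lower in their mean, and Olfm4 and Smoc2 higher. The villus enterocyte markers summed to 1274 to 1615 CPM after EtOH and 2498.5 to 2814 CPM after 4-OHT in Wnt3-CM, where 5 of the 8 were higher and 3 lower, and to 2874 to 3367 CPM and 3849 to 4506 CPM in standard medium. The Paneth cell markers fell with 4-OHT in both media, from 5842 to 6465 CPM down to 1625 to 2022 CPM in Wnt3-CM and from 7068 to 7326 CPM down to 1930 to 2295 CPM in standard medium. The part of these cell types in the levels of the mitosis genes was not tested.

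Organoids 7 days after 4-OHT were compared by genotype to set the loss of a single kinase against the combined loss. With loss of CDK8 the mitosis and G2/M genes were slightly higher than in VillinCreERT2 organoids. None of the 45 was called by edgeR, limma-voom or DESeq2 at the fold of 1.5, where 2.9% of all genes were called higher and 4.34% lower, but 43 were higher at the adjusted p alone, where 15.7% of all genes were, and 43 at an unadjusted p under 0.05, where 21.4% were. The median was 0.37, and in 44 of 45 genes every CDK8 loss library was above every VillinCreERT2 library. How many of all genes were apart in this way was not counted. Ccnb2 (0.57 ± 0.06, adjusted p = 5.30e-08), Bub1 (0.56 ± 0.06, adjusted p = 1.90e-07) and Cenpa (0.53 ± 0.06, adjusted p = 2.51e-07) were the highest and Pttg1 (0.12 ± 0.09, adjusted p = 0.315), Mki67 (0.17 ± 0.10, adjusted p = 0.204) and Plk1 (0.18 ± 0.06, adjusted p = 0.0239) the lowest.

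Cdk1 was at 101.5, 95.4 and 97.9 CPM with CDK8 loss and at 73.1, 64.7 and 72.2 CPM in VillinCreERT2 organoids (0.49 ± 0.07, adjusted p = 6.81e-06). Foxm1 was at 86.7, 81.4 and 75.7 CPM with CDK8 loss and at 66.8, 64.5 and 65.4 CPM in VillinCreERT2 organoids (0.31 ± 0.06, adjusted p = 0.000247). Top2a rose by 0.49 ± 0.06 (adjusted p = 6.14e-07) and Ccnb1 by 0.42 ± 0.08 (adjusted p = 0.000136). Mki67, at 318, 371 and 277 CPM with CDK8 loss and 302, 280 and 278 CPM in VillinCreERT2 organoids, was the member that overlapped. Without the second or the third library of CDK8 loss, or without the first or the third VillinCreERT2 library, 1 gene was called. Between lines without any loss, C57BL/6 was above VillinCreERT2 at the adjusted p alone in 29 of 45 genes, where 31.2% of all genes were (15.5% at the fold of 1.5), with a median of 0.23 and with Cenpf (0.80 ± 0.09) and Spc24 (0.61 ± 0.09) called higher. Without the third C57BL/6 or the second VillinCreERT2 library 1 of these was called, and with upper quartile scaling more genes were called.

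With loss of CDK19, against C57BL/6 organoids, 0 of 45 genes were called by edgeR, limma-voom or DESeq2, where 2.86% of all genes were called higher and 2.39% lower. At an unadjusted p under 0.05, 5 were lower, where 14.2% of all genes were, and the median was -0.06. The midzone kinesin Kif23 was the only gene lower at the adjusted p alone (-0.22 ± 0.07, adjusted p = 0.0239), where 7.8% of all genes were lower and 7.66% higher. Cdk1 was at 83.2, 84.7 and 93.1 CPM against 83.8, 95.9 and 98.4 CPM, Mki67 at 362, 349 and 341 CPM against 411, 347 and 336 CPM, and neither was apart from its control. Ccnb1 (-0.03 ± 0.08), Plk1 (-0.00 ± 0.06) and Top2a (-0.08 ± 0.06) did not pass the test. Cenpf (-0.18 ± 0.09) and Foxm1 (-0.16 ± 0.06) were next lowest and Kif11 (0.12 ± 0.07), Pttg1 (0.11 ± 0.09) and Ttk (0.09 ± 0.09) the highest, none of which passed.

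With combined loss, against VillinCreERT2 organoids, 0 of 45 genes were called by edgeR, limma-voom or DESeq2, where 11.5% of all genes were called higher and 7.95% lower. At the adjusted p alone 7 were higher and 14 lower, where 25.8% and 27.1% of all genes were, and at an unadjusted p under 0.05 8 and 17, where 28.4% and 29.4% were, with a median of -0.05. Ect2 (-0.43 ± 0.10, adjusted p = 0.00121), Foxm1 (-0.33 ± 0.06, adjusted p = 6.89e-05) and Ndc80 (-0.28 ± 0.10) were lowest and Pttg1 (0.53 ± 0.08, adjusted p = 8.32e-06), Cenpf (0.30 ± 0.09) and Ccnb2 (0.27 ± 0.06) highest. Cdk1 was at 65.8, 68.0 and 77.6 CPM, Mki67 at 233, 223 and 270 CPM and Kif11 at 91.2, 89.5 and 103.7 CPM, the last against 109.4, 99.7 and 106.9 CPM in VillinCreERT2 organoids. Foxm1, at 54.4, 49.1 and 53.2 CPM, lay below all VillinCreERT2 libraries. Mki67 was lower by a small step (-0.24 ± 0.10, adjusted p = 0.0439), as was Plk1 (-0.20 ± 0.06), and Cdk1 (0.01 ± 0.07), Ccnb1 (-0.05 ± 0.08) and Top2a (0.07 ± 0.06) did not pass. The fall of these genes at day 7 of the time course, where EtOH and 4-OHT cultures of another line of this genotype were compared, was thus not seen against VillinCreERT2 organoids.

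Combined loss set directly against CDK8 loss gave 8 genes called lower and none higher, where 8.65% of all genes were called lower and 11.7% higher, and 43 were lower by the adjusted p alone, where 28.1% of all genes were, with a median of -0.45. The 8 were Ect2 (-0.79 ± 0.10, adjusted p = 1.49e-06), Ube2c (-0.74 ± 0.06, adjusted p = 1.61e-10), Kif20a (-0.67 ± 0.08), Foxm1 (-0.64 ± 0.06), Aurkb (-0.64 ± 0.07), Bub1 (-0.60 ± 0.06), Hmmr (-0.60 ± 0.07) and Kif20b (-0.60 ± 0.09). Cdk1 (-0.48 ± 0.07), Ccnb1 (-0.47 ± 0.08), Plk1 (-0.38 ± 0.06), Mki67 (-0.41 ± 0.10) and Top2a (-0.43 ± 0.06) were lower under that fold. Pttg1 went the other way (0.42 ± 0.08, adjusted p = 0.000145). The count was 5 without the second library of combined loss. Against CDK19 loss, combined loss gave 0 calls by edgeR, limma-voom or DESeq2, where 6.33% of all genes were called higher and 4.26% lower, with 39 genes below and 1 above at an unadjusted p under 0.05 (21.7% and 21.6% of all genes), 33 below and 1 above by the adjusted p alone (17% and 17.5% of all genes), and a median of -0.24. Mki67 was lowest there (-0.53 ± 0.10, adjusted p = 0.000363), with Top2a (-0.38 ± 0.06) and Ndc80 (-0.37 ± 0.10), and Pttg1 was highest (0.43 ± 0.09). Without the third library of combined loss 1 gene was called there. The combined change minus the CDK19 change, each against its own control line, also gave 0 calls by any of these tools, where 12.1% of all genes were called positive and 8.77% negative, with 8 positive and 7 negative at an unadjusted p under 0.05 (24.9% and 25.7% of all genes) and a median of -0.01, or 1 call without the third library of combined loss, the first of C57BL/6 or the second of CDK19 loss. The 5 lines summed to 2663 to 2912 CPM over the 45 genes in VillinCreERT2, 3307 to 3474 in C57BL/6, 3519 to 3730 with CDK8 loss, 3165 to 3312 with CDK19 loss and 2567 to 2909 with combined loss. Combined loss and VillinCreERT2 overlapped in this sum.

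IECs were compared to ask whether the loss has the same effect in the animal. With combined loss 44 of the 45 genes lay below the controls in their mean (median log2 fold change -0.63), but Birc5 was the single gene called lower (-0.92 ± 0.10, adjusted p = 0.0179), where 0.856% of all genes were called lower and 0.646% higher. At an unadjusted p under 0.05, 34 were lower and 1 higher, where 9.59% and 10.3% of all genes were. In 33 genes every combined loss library was below every control library, a count that was not made over all genes. Birc5 had 14.6, 14.2 and 13.1 CPM with combined loss and 25.9, 25.9 and 27.6 CPM in controls, Ccnb2 was lower at the adjusted p alone (-0.55 ± 0.09, adjusted p = 0.0453), and Mki67 (-0.87 ± 0.37, adjusted p = 0.259), Kif18b (-0.82 ± 0.22, adjusted p = 0.123) and Plk1 (-0.82 ± 0.18, adjusted p = 0.0868) had large changes that did not pass.

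The libraries with combined loss were not alike. Mki67 had 36.5, 89.8 and 39.4 CPM with combined loss and 99.9, 87.2 and 116 CPM in controls, and Kif11 had 16.5, 34.6 and 16.3 CPM with combined loss and 32.8, 31.3 and 39.0 CPM in controls. In both genes the second combined loss library was within the range of the controls. Foxm1 had 13.9, 22.0 and 14.0 CPM with combined loss and 26.5, 28.7 and 28.2 CPM in controls (-0.74 ± 0.19, adjusted p = 0.116). Cdk1 had 16.1, 18.5 and 12.6 CPM with combined loss and 24.5, 18.8 and 23.7 CPM in controls (-0.51 ± 0.17, adjusted p = 0.183). Ccnb1 had 7.14, 9.31 and 6.37 CPM with combined loss and 13.3, 11.7 and 12.1 CPM in controls (-0.70 ± 0.17, adjusted p = 0.105). Kif22 had 12.8, 16.1 and 11.1 CPM with combined loss and 22.3, 18.4 and 22.5 CPM in controls (-0.66 ± 0.17, adjusted p = 0.111). These 4 genes did not overlap between the groups, with the second library again the closest to the controls, and Top2a (-0.69 ± 0.27) did not pass either.

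**Figure D4:**
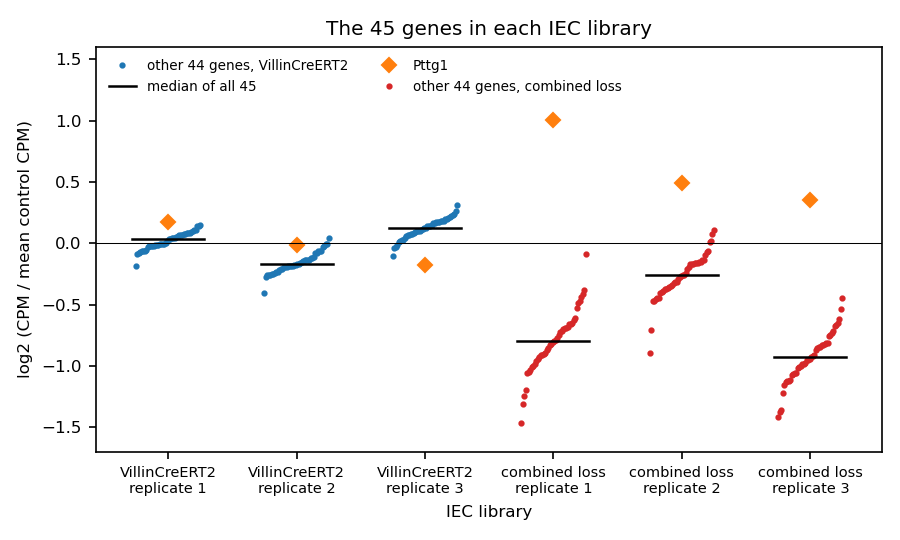
Log2 of the level of each of the 45 genes over its mean in the 3 control libraries (vertical axis), for each IEC library (horizontal axis), with controls in blue, combined loss in red, Pttg1 as an orange diamond and the median of the 45 as a bar. The medians with combined loss are -0.80, -0.26 and -0.93, so the second library lies nearer to the controls, and Pttg1 lies above 0 in all 3 combined loss libraries.

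Relative to the mean of the controls, the 45 genes had a median log2 level of -0.80, -0.26 and -0.93 in the combined loss libraries and 0.03, -0.17 and 0.12 in the controls. Without the second combined loss library, 29 genes were called, and without the second control library 4. Without the third combined loss library, the first control or the third control, 0 were called by edgeR. The call count also depended on the tool and filter, with 14 by DESeq2, 1 by limma-voom and 24 without the filter on low counts. It was 0 with a replicate block, which matches libraries by replicate number. Calls over all genes moved too, from 98 higher and 130 lower of 15182 genes in the main fit. They were 504 and 355 by DESeq2, 82 and 135 by limma-voom and 6 and 2 with the block. Without the filter they were 656 and 447 of 31446 genes. Shares of all genes for the fits without a library are not given here. The second combined loss library differed further from its group, with Xist at 1.11 CPM and Ddx3y at 30.2 CPM where the other two had Xist at 113 and 116 CPM, and the control libraries had Xist at 133 to 168 CPM. The 10 immune markers summed to 1658, 880 and 877 CPM with combined loss and 79.0, 690 and 110 CPM in controls, and the 6 mesenchyme markers to 763, 529 and 370 CPM and 10.6, 779 and 42.5 CPM, so both were detected in all 6 libraries and in amounts that differed between them. Epithelial markers summed to 8792 to 9653 CPM with combined loss and 10006 to 10537 CPM in controls, stem cell markers to 358, 511 and 310 CPM and 839, 744 and 1039 CPM, and villus enterocyte markers to 28523, 20217 and 28485 CPM and 20314, 19980 and 20448 CPM, with 5 of the 8 higher in their mean and 3 lower. Paneth cell markers summed to 714, 1690 and 743 CPM and 4609, 2789 and 3680 CPM. The mitosis genes are expressed by any dividing cell, and the part of these cell types and of the sex of the mice in the differences was not tested.

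Organoids whose only CDK19 was the D173A form tested whether the kinase activity matters. After 4-OHT 4 of the 45 genes were called lower and none higher, where 6.25% of all genes were called lower and 6.05% higher, and 27 were lower at the adjusted p alone, where 13.7% of all genes were, with a median of -0.32. The 4 were Kif11 (-0.81 ± 0.10, adjusted p = 0.000255), Kif20b (-0.79 ± 0.10), Incenp (-0.74 ± 0.06, adjusted p = 2.16e-05), which anchors Aurora B at centromeres, and Mki67 (-0.60 ± 0.14, adjusted p = 0.0167). Without the first EtOH library 7 were called. Kif11 had 62.4, 55.5 and 54.0 CPM after 4-OHT and 85.8, 108.7 and 107.0 CPM after EtOH. Mki67 had 157, 156 and 111 CPM after 4-OHT and 189, 234 and 221 CPM after EtOH. Cdk1 had 34.1, 33.2 and 35.6 CPM after 4-OHT and 40.8, 47.8 and 47.7 CPM after EtOH (-0.41 ± 0.08, adjusted p = 0.00465). The groups were apart in these genes, as they were for Foxm1, with 41.7, 40.0 and 42.2 CPM against 50.5, 54.8 and 55.5 CPM (-0.38 ± 0.07, adjusted p = 0.00259), and for Ccnb1, with 19.1, 19.4 and 18.2 CPM against 21.7, 26.3 and 26.3 CPM (-0.39 ± 0.10, adjusted p = 0.0130). Kif22 overlapped, with 32.1, 28.9 and 34.2 CPM against 36.8, 37.8 and 34.1 CPM (-0.19 ± 0.09, adjusted p = 0.124). Top2a fell by 0.53 ± 0.09 and Plk1 by 0.24 ± 0.07, and Cdca8 (-0.08 ± 0.07) and Aurka (-0.11 ± 0.08) did not pass. Over the same libraries, stem cell markers summed to 424 to 474 CPM after 4-OHT and 782 to 889 CPM after EtOH, Paneth cell markers to 1307 to 1569 CPM and 2222 to 2479 CPM, and villus enterocyte markers to 9197 to 12702 CPM and 5130 to 5388 CPM. Of the 5 Paneth cell markers Lyz1 went the other way, at 847 ± 67.4 CPM after 4-OHT and 458 ± 56.6 CPM after EtOH (SD, n = 3), and of the 8 villus enterocyte markers Ada and Nt5e were lower in their mean. Their part in the change of the mitosis genes was not tested. The columns of this experiment carry a line number without a genotype and were assigned to it as the only other line with EtOH and 4-OHT groups. The difference between this response and that of the line without CDK19 was not tested.

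Pttg1 lay above 0 where the other 44 genes lay below 0 in 5 of the 10 comparisons plotted, and is described for that reason, after its values were seen. Securin, its product, holds separase inactive until the APC/C destroys it at anaphase. In the time course it had 9.82, 8.81 and 9.36 CPM after EtOH and 12.3, 12.5 and 12.7 CPM after 4-OHT at day 3 (0.42 ± 0.12, adjusted p = 0.00533), when the other genes were higher too. At day 5 it overlapped, with 10.3, 12.6 and 10.3 CPM after EtOH and 13.2, 10.8 and 14.5 CPM after 4-OHT (0.21 ± 0.12, adjusted p = 0.163). At day 7 it had 12, 9.59 and 11.3 CPM after EtOH and 13.8, 15.0 and 14.0 CPM after 4-OHT (0.38 ± 0.11, adjusted p = 0.00664). It was then the member that rose while 44 fell at the adjusted p, where 22.7% of all genes were higher and 22.5% lower. At day 10 it had 10.4, 8.64 and 10.7 CPM after EtOH and 14.2, 14.1 and 13.9 CPM after 4-OHT (0.50 ± 0.12, adjusted p = 0.000647). In Wnt3-CM it had 7.83, 9.02 and 8.58 CPM after EtOH and 17.4, 15.1 and 14.1 CPM after 4-OHT, and in Cdk19 ko/D173A organoids 10.8, 10.5 and 8.93 CPM after EtOH and 14.4, 14.3 and 13.9 CPM after 4-OHT (0.49 ± 0.11, adjusted p = 0.00648). Of the 6 comparisons of 4-OHT with EtOH, Pttg1 was the highest of the 45 genes in 5, and at day 3 it ranked 17.

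With combined loss at day 7 Pttg1 had 22.1, 19.1 and 20 CPM, above all libraries of VillinCreERT2 (14.2, 13.4 and 14.6 CPM), of CDK8 loss (15.0, 15.7 and 15.1 CPM), of CDK19 loss (14.8, 14.4 and 16.3 CPM) and of C57BL/6 organoids (12.9, 14.1 and 15.1 CPM). In IECs it had 22.2, 15.5 and 14.1 CPM with combined loss and 12.4, 11.0 and 9.78 CPM in controls, without overlap but short of the test (0.64 ± 0.20, adjusted p = 0.153). Only in Wnt3-CM did the difference pass the fold of 1.5 at an adjusted p under 0.05.

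**Figure D5:**
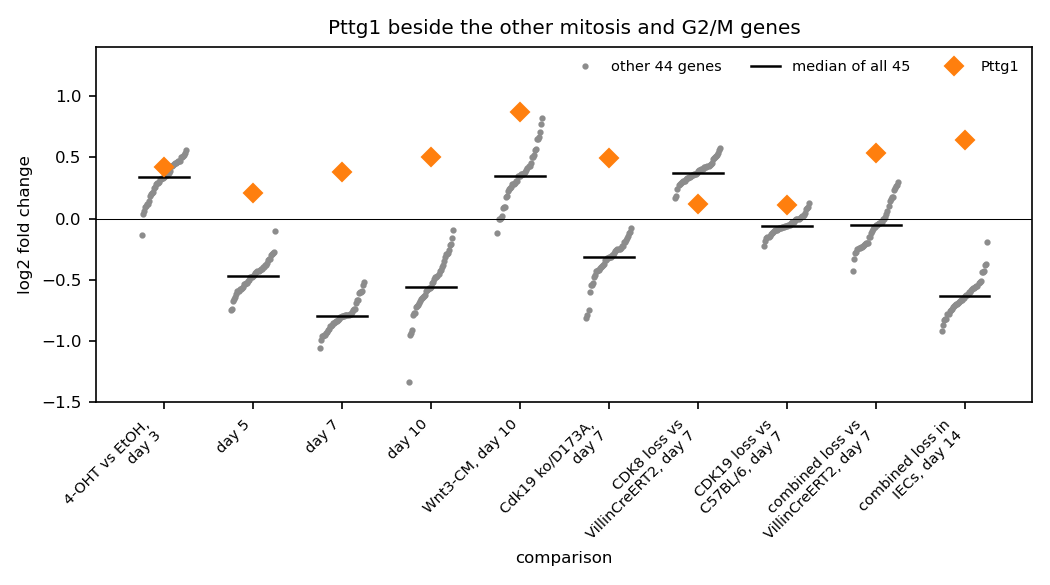
Log2 fold change (vertical axis) of Pttg1 (orange diamond), of the other 44 genes (grey) and their median with Pttg1 included (bar) in 10 comparisons (horizontal axis). At days 5, 7 and 10, in Cdk19 ko/D173A organoids and in IECs Pttg1 lies above 0 and the other 44 genes below, whereas with CDK8 loss it is the lowest of the 45.

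Lists of related genes were measured beside the 45. Among 54 other genes of G2 and mitosis, such as condensin subunits and further kinetochore and spindle genes, 12 were called higher at day 3, 6 lower at day 5, 41 lower and 1 higher at day 7 and 20 lower and 1 higher at day 10, with medians of 0.40, -0.39, -0.75 and -0.47. Of all genes, 6.42% were called higher at day 3, and 4.62%, 9.25% and 6.92% lower at days 5, 7 and 10. In Wnt3-CM 6 were called higher and 0 lower by edgeR, where 9.45% of all genes were called higher, while the adjusted p alone gave 30 above and 2 below (median 0.29), where 24.3% and 23.9% of all genes were, and 3 were called higher with CDK8 loss (median 0.39), where 2.9% of all genes were. The gene called higher against the fall of the list was Pimreg, a mitotic gene, at day 7 (0.79 ± 0.26) and at day 10 (1.36 ± 0.30). It was also called higher in Cdk19 ko/D173A organoids (1.03 ± 0.21). Where the list median was positive it was called higher too, at day 3 (1.94 ± 0.24), in Wnt3-CM (3.88 ± 0.38, adjusted p = 2.67e-08) and with CDK8 loss (2.14 ± 0.17, adjusted p = 5.14e-10). The lowest at day 7 was the centromere gene Cenpi (-1.2).

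Among 15 genes of DNA replication in S phase, 13 were called lower at day 5, 14 at day 7 and 7 at day 10, with medians of -0.73, -0.95 and -0.54, where 4.62%, 9.25% and 6.92% of all genes were called lower. At day 3, 9 were higher at the adjusted p alone (median 0.37), where 15.5% of all genes were. The lowest at day 7 was the cyclin gene Ccne2 (-1.26) and the highest Pcna (-0.34). They were thus called at day 5 in a larger share (13 of 15) than the mitosis genes (9 of 45), although that difference was not tested. The count of 9 ranged from 1 to 21 when a library was left out, and most mitosis genes passed the adjusted p alone. Combined against CDK8 loss, 11 of the 15 were called lower (median -0.65), where 8.65% of all genes were, and in IECs none was called by edgeR (median -0.31).

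Among 20 regulators of G2/M transcription and of the cycle, 3 were called lower at day 5, 7 at day 7 and 4 at day 10, where 4.62%, 9.25% and 6.92% of all genes were. Mybl2, which encodes the B-MYB partner of MuvB, was the lowest at day 7 (-1.14 ± 0.20, adjusted p = 9.84e-05) and at day 10 (-0.74 ± 0.19), and in Wnt3-CM it was called higher (0.63 ± 0.09, adjusted p = 8.34e-06). E2f1, a transcription factor of S phase entry, was the lowest at day 5 (-0.88 ± 0.14). Rb1, which encodes the retinoblastoma protein that restrains E2F, was the highest at day 7 (0.46 ± 0.08, adjusted p = 1.21e-05) without reaching the fold of 1.5. Among 7 genes of CDK inhibitors, 6 were tested in the time course and 0 were called by edgeR at day 7 or at day 10, with Cdkn2c the lowest (-0.52 ± 0.13) and Cdkn2b the highest (0.36) at day 7. In Wnt3-CM 3 of 7 were called lower, where 7.42% of all genes were, among them Cdkn2a (-2.39 ± 0.49, adjusted p = 0.000420) and Cdkn1a (-1.12 ± 0.08, adjusted p = 4.75e-10), the gene of the p21 inhibitor that p53 induces.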

How the data were processed

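RNA was measured by polyA RNA sequencing (100 bp paired-end reads) of mouse organoids and IECs. The counts per gene were deposited by the authors in 4 tables, made per the submitters' processing notes with STAR 2.5.2 and featureCounts of Subread 1.6.3 on mm10; the strand setting and annotation release are not given in the sources used here. Rows are 54752 genes, and 57 libraries in 19 groups were used. Another 6 columns of IECs carry suffixes that the labels do not explain and were not used, so IECs with kinase-dead CDK19 were not analysed here. The columns of line 1276 were assigned to Cdk19 ko/D173A organoids by elimination.

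Each table was fitted separately with edgeR 4.0.16 in R 4.3.3 (filterByExpr, TMM, robust quasi-likelihood F test, all groups of a table together), and the Wnt3-CM libraries were also fitted jointly with the day 10 libraries of the time course. P-values were adjusted by the Benjamini-Hochberg method over all genes tested, and a gene was called at an adjusted p under 0.05 and a fold over 1.5. Standard errors are of the log2 fold change and levels are TMM-scaled CPM. limma-voom (limma 3.58.1), DESeq2 1.42.0, upper quartile scaling, other count filters, a replicate block (by the number in the column name for the tables without labelled libraries, an alternative chosen after seeing the data), fits of only the groups compared and leaving out each library were alternatives. The fitting code was tested on simulated data. Depth was 15485959 to 32909565 counts per library. No 2 replicates were identical, and all 57 pairs differed by more than sampling noise (chi-square per gene 2.40 to 71.1).

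The 45 members and the other lists were chosen with earlier results of these data known. The rule for named genes gave, for the comparisons of a condition with its control, Cdk1, Ccnb1, Plk1, Foxm1, Mki67 and Top2a, the extremes of the members and those of a role or list, not all of which are printed for every comparison; library values are given for Cdk1, Ccnb1, Mki67, Foxm1, Kif22 and the members most often called after 4-OHT, Kif11 and Mki67. Birc5 in Wnt3-CM and IECs and Pttg1 and Pimreg were added after their values were seen. Gene positions are from GENCODE vM21 (GRCm38), in which 41 of 45 identifiers were the same with version, and promoters from RefSeq (GRCm38.p6).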

Additional observations from a re-analysis of the deposited data

Results flagged for a closer look

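The 4-OHT effect on some of the mitosis and G2/M genes differed between days and between media by tests of the difference itself. From day 3 to day 5 it became lower for 39 of 45 genes, where 9.01% of all genes were called negative. In Wnt3-CM it was higher than in standard medium at day 10 for 37 genes, where 7.11% of all genes were called positive. From day 5 to day 7 it became lower for 2 genes, no larger a share than the 5.01% of all genes called negative (18 without the third 4-OHT library of day 7, and 0 without the second). From day 7 to day 10 it became higher for 4, where 2.98% of all genes were called positive (16 and 1 without the same libraries). No explanation was tested.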

How the results depend on the processing

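With the adjusted p alone in place of the added fold of 1.5, the genes called of 45 became 43 for CDK8 loss, 1 for CDK19 loss, 21 for combined loss, 44 for combined against CDK8 loss, 34 for combined against CDK19 loss, 11 for the combined minus the CDK19 change, 30 between control lines, 24 at day 3, 39 at day 5, 37 at day 10, 5 for day 7 minus day 5, 32 for EtOH organoids at day 10 against day 3, 35 in Wnt3-CM, 12 for the medium after 4-OHT, 2 in IECs and 28 with Cdk19 ko/D173A. Each of these counts includes both directions. By the adjusted p alone, 21.3% of all genes were positive and 22.5% negative for the combined minus the CDK19 change. For day 7 minus day 5 the shares were 10.6% and 8.29%. Shares higher and lower were 33.5% and 33.7% for EtOH organoids at day 10 against day 3. They were 14.4% and 14.9% for the medium after 4-OHT, and 0.659% and 0.883% in IECs. Requiring at least 10 counts in every library gave 5 for combined against CDK8 loss. Upper quartile scaling gave 5 for the same comparison, 6 between control lines, where the median log2 fold change of all genes was 0.10 against 0.02 with TMM, and 1 at day 3. Fitting only the groups compared gave 1 at day 3. In IECs 24 genes were called without a filter, 14 by DESeq2 and 0 with the replicate block. Scaled by plain totals, the mean summed level was 1629.4 CPM in Cdk19 ko/D173A organoids after 4-OHT (1681.0 with TMM), 3685.4 CPM after 4-OHT at day 3 (3351.8) and 3481.5 CPM after EtOH at day 10 (3381.6). Counting motifs only before the start left 13 genes with a CHR. The causes were not tested.

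Leaving out each library in turn gave 0 to 1 genes called for CDK8 loss, 5 to 11 for combined against CDK8 loss, 0 to 1 for combined against CDK19 loss, 0 to 1 for the combined minus the CDK19 change, 1 to 3 between control lines, 0 to 1 at day 3, 1 to 21 at day 5, 35 to 44 at day 7, 17 to 22 at day 10, 0 to 18 for day 7 minus day 5, 1 to 16 for day 10 minus day 7, 6 to 10 in Wnt3-CM, 0 to 29 in IECs and 3 to 7 with Cdk19 ko/D173A. Of the values of these comparisons under the other alternatives, 151 stayed within 1.5 times or within 1 SD and 28 moved, and none reversed.

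In none of 16 comparisons were all 3 correlations between the deviations of same-numbered libraries over 0.1 (-0.41 to 0.206 in IECs, 0.0443 to 0.232 at day 10 and 0.0951 to 0.222 in Wnt3-CM), so the numbers were not taken as pairs. Every library correlated best with its own number in 3 of the 16, Wnt3-CM among them, a hint from the data and not the design. The replicate block moved no count by over 1.5 times other than that of IECs. For Wnt3-CM, the joint fit and Cdk19 ko/D173A, whose columns end in a number but are not tied to single labelled libraries, the replicate block used that number and was added after seeing the data. It gave 7 genes called in Wnt3-CM, 36 for the difference between media, 37 for the medium after EtOH, 0 after 4-OHT and 4 with Cdk19 ko/D173A. The alternatives for IECs with kinase-dead CDK19 were not run.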
